A study of Mus musculus with 8 samples.

Results

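The carboxylesterase genes Ces1d, Ces1e, Ces1f, Ces1g, Ces2a, Ces2b, Ces2c, Ces2e and Ces2g and the arylacetamide deacetylase gene Aadac were followed in mouse colon with and without T cell colitis. This group was chosen by the lower log2 intensity of its measured genes in the inflamed colons on these same arrays. The differences between the groups are therefore given as a description, with no test. Of the 10 genes, 9 had a named probe set, among 30743 genes measured in all. Each of the 9 was read by 1 probe set. Ces2c had none under its name and is not analysed here, apart from its promoter sequence.

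The mice were C57BL/6 Rag1-/- animals, which make no T or B cells of their own. The 5 control mice had received regulatory T cells (Treg), and their colons were labelled as not inflamed. The 3 inflamed mice had received naïve T cells, which cause colitis in such hosts, and were killed when severely ill, with loss of weight and diarrhoea. Both groups therefore lacked Rag1 and both carried transferred T cells, so the controls are neither wild-type nor untreated. Injection took place at 10 weeks of age and death 2 to 4 months later, whereas the labels give an age of 4 to 5 months for every mouse, so the exact ages are uncertain. The sampled region is uncertain too, with distal colon named for the samples but a strip from end to end of the colon in the design text. RNA of each mouse was read on 1 whole-transcript Affymetrix array, and values are log2 intensities, on which 1 unit is a 2-fold difference. The labels call the replicates biological without naming animals, so the spread given here is that between these 8 samples.

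Carboxylesterases are serine hydrolases that sit mostly in the lumen of the endoplasmic reticulum (ER) and cut ester, amide and thioester bonds. They hydrolyse drugs, prodrugs and toxic esters as well as triglycerides and cholesteryl esters, and are abundant in liver and in the absorptive cells of the gut. The mouse has expanded the family by repeated gene duplication, into a Ces1 and a Ces2 group with several members each. Aadac belongs to a related family anchored in the ER membrane, and its enzyme removes acetyl groups from arylamide drugs and also acts on stored lipid. In the RefSeq gene order Ces1a to Ces1h lie side by side on chromosome 8, followed by Ces5a. A second run on chromosome 8 holds Ces2a, Ces2b, Ces2c, the transcribed pseudogene Ces2d-ps, Ces2e, Ces2f, Ces2g, Ces2h, Ces3a, Ces3b and Ces4a. Aadac lies on chromosome 3 beside Aadacl2 and 3 further Aadacl2-type genes.

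Pearson correlations over all transcript clusters ran from 0.994 to 0.997 between controls, from 0.986 to 0.995 between inflamed arrays and from 0.98 to 0.986 between the groups. Inflamed replicate 2 stood apart. It correlated at 0.986 to 0.987 with the other inflamed arrays, and limma's array weights gave it 0.174, against 0.841 to 1.71 for the others. The median signal of all transcript clusters, 4.88, was used as a limit for dim values. The array medians of the 5222 negative control probe sets lay between 4.92 and 5.11. Over all genes, limma called 4020 changed at an adjusted p under 0.05 (13.1%), of which 1546 were lower (5.03%) and 2474 higher (8.05%) in the inflamed colons. Without inflamed replicate 1 it called 2506.

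All 9 measured members were lower in each of the 3 inflamed colons than in every control, a separation seen in 9.16% of all genes. The log2 difference between group means ran from 3.44 for Aadac down to 0.77 for Ces2g. The median over the 9 was -1.76, against -0.01 over all genes. All 9 passed the threshold of the limma fit (background 5.03% lower), from which nothing is read, because this contrast chose them. Of the 9, 8 were at least 2-fold lower, as were 298 of all genes (0.895% of genes were both past the threshold and that far lower), and 3 were at least 4-fold lower, as were 58 of all genes. In bulk tissue, fewer cells of a type and less RNA per cell cannot be told apart.

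**Figure D1:**
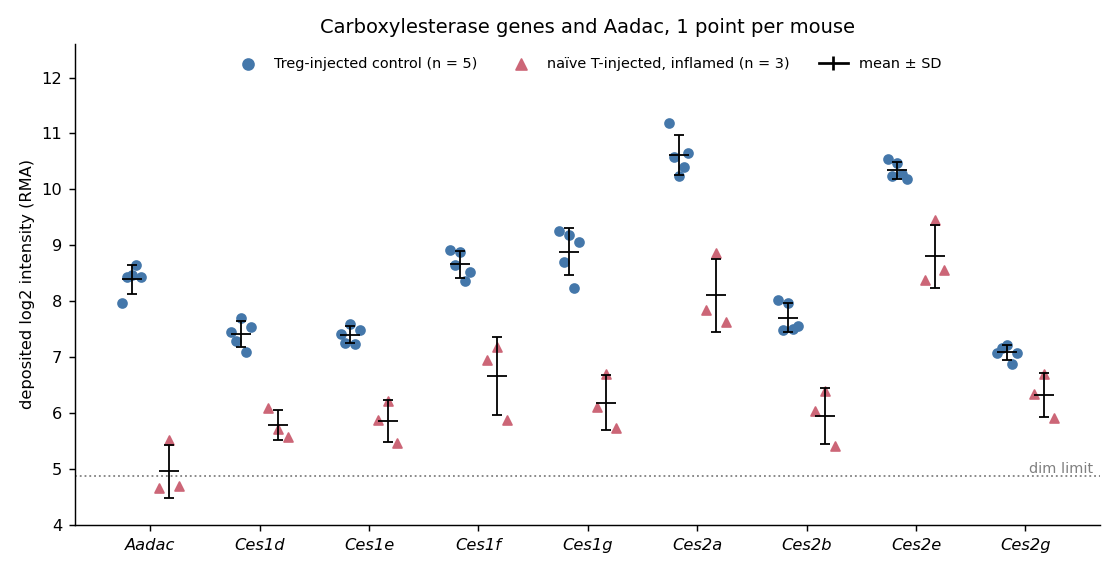
Deposited log2 intensity of the 9 measured members in each mouse, with 5 Treg-injected controls as circles and 3 inflamed colons as triangles; the black marks show the mean and SD of each group and the dotted line the dim limit of 4.88. No inflamed point reaches a control point of the same gene, and only Aadac drops below the dim limit, on inflamed replicates 1 and 3.

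Aadac had the widest separation of the family. In control replicates 1 to 5 its log2 intensity was 7.97, 8.43, 8.46, 8.66 and 8.43, a mean of 8.39 ± 0.25 (SD, n = 5). In inflamed replicates 1 to 3 it was 4.65, 5.51 and 4.70, a mean of 4.96 ± 0.48 (SD, n = 3). The groups were thus 3.44 ± 0.23 log2 units apart (limma standard error, SE), or 10.8-fold, and the lowest control lay 2.45 units above the highest inflamed array. Inflamed replicates 1 and 3 were under the dim limit, where signal and background merge, so the true fold is not fixed by these values. The negative control medians, 4.92 to 5.11, lay above that limit. On inflamed replicate 3, Ces2b (5.41), Ces1e (5.47) and Ces1d (5.57) came near them, so their folds carry a like caution. Leaving out any 1 array or changing any other processing choice kept the difference between 3.28 and 3.71.

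Among the Ces1 genes, Ces1g, a lipid-handling esterase of liver and intestine, was the most reduced. Its control arrays read 9.26, 8.71, 9.18, 8.23 and 9.06 and its inflamed arrays 6.12, 6.70 and 5.73. The control mean was 8.89 ± 0.42 (SD, n = 5) and the inflamed mean 6.18 ± 0.49 (SD, n = 3), a difference of 2.70 ± 0.29 (SE), or 6.52-fold lower. Control replicate 4 was the lowest control, yet it stayed 1.53 units above the highest inflamed array.

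Ces1f is a close relative of Ces1g in the same gene run. It read 8.92, 8.65, 8.88, 8.36 and 8.51 in the controls and 6.94, 7.19 and 5.87 in the inflamed colons. The means, 8.66 ± 0.24 and 6.67 ± 0.70 (SD), differed by 2.00 ± 0.30 (SE), or 3.99-fold. Inflamed replicate 3 lay more than 1 unit under the other inflamed arrays, so that Ces1f had the widest inflamed spread of the 9 members.

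Ces1d, known as a triacylglycerol hydrolase that mobilises stored fat for lipoprotein assembly in liver, read 7.46, 7.29, 7.70, 7.10 and 7.55 in the controls. The inflamed colons gave 6.09, 5.71 and 5.57, and the difference of means was 1.63 ± 0.16 (SE), or 3.09-fold. Ces1d was the only member for which inflamed replicate 1, and not replicate 2, was the highest inflamed array. Ces1e, also called egasyn, which holds beta-glucuronidase in the ER, read 7.42, 7.26, 7.60, 7.23 and 7.48 in the controls. It read 5.87, 6.22 and 5.47 in the inflamed colons, a difference of 1.54 ± 0.17 (SE), or 2.91-fold. For both genes the gap between the lowest control and the highest inflamed array was 1.01 units.

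The Ces2 genes encode esterases that favour substrates with a small acyl group and a large alcohol group, and that activate ester prodrugs in the gut wall. Ces2a read 11.19, 10.58, 10.25, 10.39 and 10.65 in the controls and 7.83, 8.86 and 7.63 in the inflamed colons. Its means, 10.61 ± 0.36 (SD, n = 5) and 8.11 ± 0.66 (SD, n = 3), were 2.50 ± 0.32 apart (SE), or 5.67-fold. The groups were 1.39 units clear of each other. Control replicate 1 was the highest and inflamed replicate 2 the least reduced.

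Ces2b read 8.02, 7.49, 7.97, 7.51 and 7.55 in the controls and 6.04, 6.40 and 5.41 in the inflamed colons. Its difference of means was 1.76 ± 0.24 (SE), or 3.38-fold. Ces2e had tightly grouped controls, at 10.55, 10.25, 10.46, 10.28 and 10.19, and inflamed values of 8.39, 9.45 and 8.56. Its difference was 1.54 ± 0.23 (SE), or 2.92-fold. Inflamed replicate 2 stood above the other inflamed arrays for Ces2e and came within 0.74 units of the lowest control.

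Ces2g was the least reduced member. Its controls read 7.08, 7.17, 7.23, 6.88 and 7.07 and its inflamed arrays 6.35, 6.70 and 5.91. The means of 7.09 ± 0.13 (SD, n = 5) and 6.32 ± 0.39 (SD, n = 3) were 0.77 ± 0.17 apart (SE), or 1.70-fold. The closest control and inflamed arrays were only 0.18 units apart. Ces2g was also the only member to miss the adjusted threshold when a single control (replicate 1, 2, 3 or 5) or inflamed replicate 1 was left out, or when dim values were raised to the dim limit.

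The Ces2 promoters are shown because Ces2a, Ces2e and Ces2g lie in the same gene run, were all lower, and share stretches of sequence that their neighbours hold only in part or not at all. RefSeq promoter sequence (GRCm38.p6, 250 bases before to 50 after the start) was at hand for 7 of the 10 members, but not for Ces1d, Ces1f and Ces2b. The 150 bases before the start are given 5′ to 3′ on the plus strand, with 2 shared words, CAAATTCCTGC and ACTTTGCCC, in capitals.
Ces2a, chr8:104733853-104734002: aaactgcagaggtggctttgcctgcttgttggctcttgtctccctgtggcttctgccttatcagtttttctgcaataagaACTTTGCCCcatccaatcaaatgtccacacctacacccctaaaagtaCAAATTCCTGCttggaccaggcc
Ces2e, chr8:104926110-104926259: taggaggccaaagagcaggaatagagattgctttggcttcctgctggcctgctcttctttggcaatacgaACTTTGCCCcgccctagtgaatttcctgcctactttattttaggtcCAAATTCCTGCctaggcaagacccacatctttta
Ces2g, chr8:104961568-104961717: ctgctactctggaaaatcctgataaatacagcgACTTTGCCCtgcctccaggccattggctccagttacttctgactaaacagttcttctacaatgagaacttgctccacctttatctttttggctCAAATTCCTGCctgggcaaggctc
Ces2c, chr8:104846918-104847067: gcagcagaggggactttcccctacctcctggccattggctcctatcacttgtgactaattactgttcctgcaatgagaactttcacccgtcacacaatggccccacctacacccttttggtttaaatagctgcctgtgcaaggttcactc
Ces2f, chr8:104947206-104947355: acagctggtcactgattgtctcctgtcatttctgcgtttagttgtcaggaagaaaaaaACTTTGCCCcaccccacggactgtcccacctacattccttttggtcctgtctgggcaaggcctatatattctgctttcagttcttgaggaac

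CAAATTCCTGC was the longest word found in at least 3 of the 7 member promoters, counting both strands. It began 23 bases before the start of Ces2a, 34 before that of Ces2e and 24 before that of Ces2g. It occurred in 8 of 32851 promoters (0.0244%), and in 0 of the 16 promoters of other family genes. ACTTTGCCC was the longest word shared by Ces2a, Ces2e, Ces2f and Ces2g, a set of genes picked after their windows were read. It began 70 bases before the start of Ces2a, 80 before that of Ces2e and 117 before that of Ces2g, and also 92 before that of Ces2f, in 86 promoters in all (0.262%). Ces2c, whose window is otherwise similar to its neighbours', held neither word. These genes arose by duplication, so shared letters are a description of the sequences and show no binding.

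Words bound by gut transcription factors were looked for in the same promoters, on both strands. The HNF4 core CAAAGTCCA was in 0 of the 7 member promoters (0.475% of all promoters), and so was the HNF1 half-site GTTAAT (7.1%). The nuclear receptor half-site AGGTCA was in Ces2a alone among them (16.3% of all promoters). The TATA box word TATAAA was in Ces1g alone (13.6%). That match, 26 bases before the start, was on the opposite strand and read TTTATA in the gene's own direction. A missing word says only that these letters are not in this window.

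Among the inflamed arrays most members kept a similar order. Inflamed replicate 2 was the highest inflamed array for 8 of the 9 members, and inflamed replicate 3 the lowest for 7. The share of all genes with this order was not counted, and replicate 2 stood apart in the correlations over all transcript clusters. The mean of the colonocyte markers had the same order, at -0.79, -0.40 and -1.04 in inflamed replicates 1 to 3, so the order is not particular to the members. Averaged over the 4 Ces1 members, the log2 difference from the control mean was -1.84, -1.64 and -2.43 in inflamed replicates 1 to 3. For the 4 Ces2 members it was -1.78, -1.09 and -2.06. Among controls the order differed between members. Control replicate 4 was the lowest for all 4 Ces1 members and for Ces2g, while for Aadac it was the highest. Control replicate 1 was the highest for 5 members and the lowest for Aadac. The SD between inflamed arrays exceeded that between controls for 9 of 9 members, which also held for 63.8% of all genes.

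Sex is not labelled, but the Xist signal split the arrays into a low and a high set. The low set held 2 controls with 2 inflamed and the high set 3 controls with 1 inflamed. Among the arrays with low Xist signal the member differences ran from 0.60 (Ces2g) to 3.12 (Aadac) log2 units lower. In the other arrays they ran from 1.15 (Ces2g) to 3.81 (Aadac) lower.

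The rest of the family gave mostly low signal. Of 18 other carboxylesterase and Aadac-like genes, 13 were under the dim limit in both groups, 5 fell and 0 rose (27.8% lower, against 5.03% of all genes), and their median difference was -0.05. Ces2d-ps, the pseudogene between Ces2c and Ces2e, read 11.39, 10.99, 11.23, 10.96 and 10.98 in the controls and 9.49, 10.01 and 8.80 in the inflamed colons. It fell by 1.68 ± 0.25 (SE, limma adjusted p = 0.00616). Ces2 genes are near copies of each other, so their probe sets may share signal. The Ces1 genes also arose by duplication, and the same may hold for them. Neither was tested, so Ces2d-ps and its neighbours, and likewise the Ces1 members, are uncertain as separate readings.

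Nceh1, the neutral cholesteryl ester hydrolase of the Aadac family, read 7.49, 7.13, 7.84, 7.16 and 7.63 in the controls. It read 6.22, 6.82 and 6.10 in the inflamed colons, and fell by 1.07 ± 0.22 (SE, adjusted p = 0.0206). Its adjusted p rose to between 0.0537 and 0.0792 without control replicate 5, inflamed replicate 1 or inflamed replicate 3.

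The other 3 genes past the threshold differed little in size. Ces1c fell by 0.24 (adjusted p = 0.0227) and Ces1b by 0.11 (adjusted p = 0.0384), both under the dim limit in both groups. Ces2h fell by 0.22 (adjusted p = 0.0123), with adjusted p = 0.0565 after shifting arrays to a common median and 0.057 after quantile normalization. Its means, 5.47 in the controls and 5.25 in the inflamed colons, were near the negative control medians. Ces1b lost its call under 11 alternatives and Ces1c under 4, among them the floor at the dim limit and leaving out control replicate 2, inflamed replicate 1 or inflamed replicate 2. Counts of lost calls leave out the fit with the replicate number as a block, in which 0 genes passed in limma (4915 had an unadjusted p under 0.05). Ces1a, at 5.17 in the controls and 4.93 in the inflamed colons, and Ces1h, at 4.46 and 4.21, did not pass. Ces1h did so after shifting arrays to a common median (adjusted p = 0.046) and with an intensity trend and robust variances (0.0478).

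Ces2f, between Ces2e and Ces2g, was not lower on any inflamed array. It read an identical 5.41 in all 5 controls and 5.73, 5.58 and 5.41 in the inflamed colons, a difference of +0.17 ± 0.06 (SE, adjusted p = 0.144). Without inflamed replicate 3 its adjusted p was 0.017, in the direction of a rise. The genes Ces3a, Ces3b, Ces4a, Ces5a, Aadacl2, Aadacl2fm1, Aadacl2fm2, Aadacl2fm3, Aadacl3 and Aadacl4 were under the dim limit in both groups and did not pass the threshold. Their group means lay between 3.05 (Aadacl2fm1) and 4.78 (Ces3a).

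**Figure D2:**
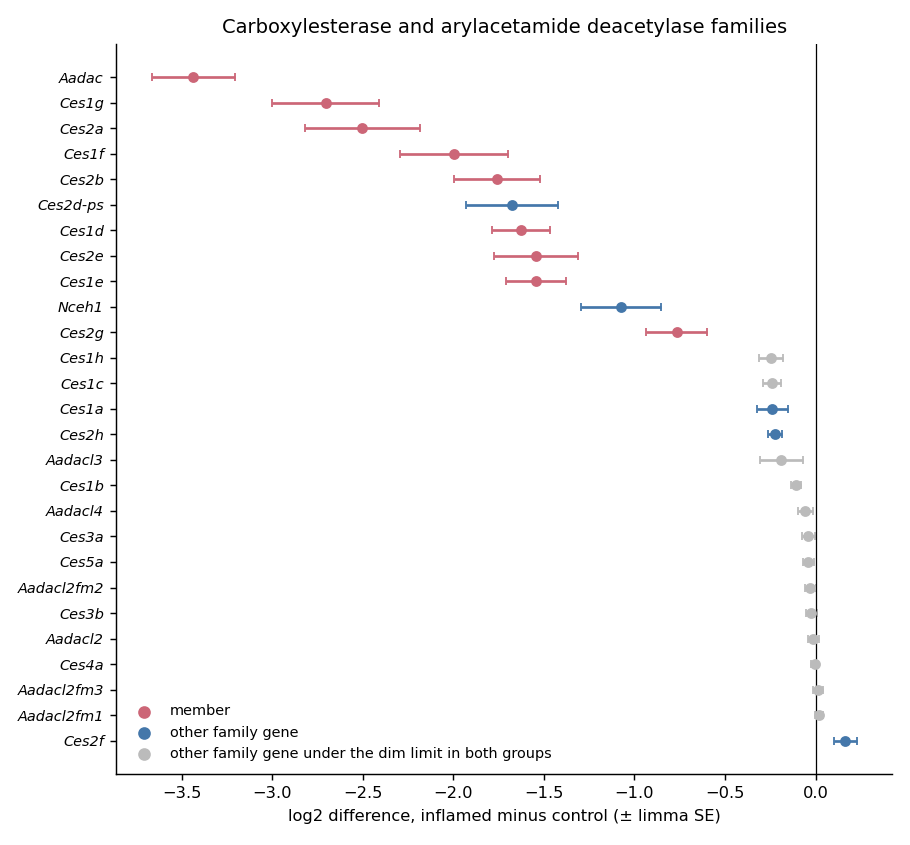
Log2 difference, inflamed minus control, of each measured gene of the carboxylesterase and Aadac families, with the limma SE as bars; n = 5 control and 3 inflamed arrays. The 9 members lie between -3.44 (Aadac) and -0.77 (Ces2g), joined by Ces2d-ps and Nceh1, while the other 16 family genes lie between -0.25 (Ces1h) and 0.17 (Ces2f).

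The nearest genes outside the family changed in both directions. Beside the Aadac run, Igsf10 fell by 0.54 (adjusted p = 0.0139, and 0.0542 without inflamed replicate 1). On its other side Mbnl1 rose by 0.50 (adjusted p = 0.0298), a call lost under 7 alternatives. Beside the Ces1 run, Capns2 rose by 0.34 (adjusted p = 0.00645) and Gnao1 fell by 0.50 (adjusted p = 0.00707). Beside the Ces2 run, Cbfb, which encodes the partner of the RUNX transcription factors, rose by 0.39 (adjusted p = 0.00758). Gm5709, Sucnr1, Slc6a2, Nudt21, Ciao2b, Rrad and D230025D16Rik, the remaining neighbours, differed by at most 0.09 and did not pass. Of these, D230025D16Rik passed with array weights (-0.11, adjusted p = 0.0252) and without inflamed replicate 2 (adjusted p = 0.03).

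Genes outside the family with the most similar pattern over the 8 arrays were found by the root mean square difference of log2 values, each gene centred on its own mean. They are descriptions and carry no test. Nearest to Aadac were Ccn3 (root mean square difference 0.36), a secreted matrix protein, Sult1c2 (0.40), a sulfotransferase, and Dio1 (0.42), the deiodinase that activates thyroid hormone. Sult1c2 read 4.34 and 4.67 on inflamed replicates 1 and 3, under the dim limit. Ccn3 read 5.13 on inflamed replicate 1, near the negative control medians. Their likeness to Aadac on these arrays carries the same caution as the fold of Aadac. Nearest to Ces1g were Dio1 (0.27) and the selenium-binding protein genes Selenbp2 (0.27) and Selenbp1 (0.27), which are near copies. Nearest to Ces2a were Gm15998 (0.22), Slc30a10 (0.25), a manganese exporter, and Pcsk5 (0.26), a proprotein convertase. The closest pair among these members was Ces1g and Ces2a, at 0.33, while Aadac was 0.58 from Ces1g.

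**Figure D3:**
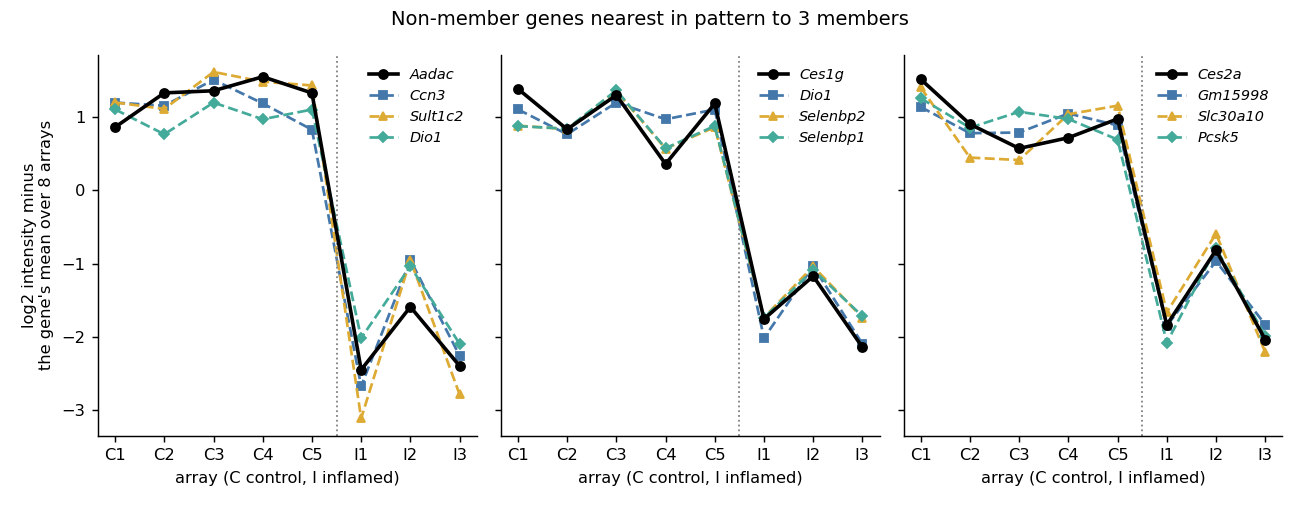
Log2 intensity minus the gene's mean over 8 arrays for Aadac, Ces1g and Ces2a (black) and the 3 non-member genes nearest to each; C1 to C5 are controls and I1 to I3 inflamed colons, which have no order within a group. In every panel inflamed replicate 2 is the least reduced of the inflamed arrays, for the member and for its 3 neighbours in pattern.

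Genes that work in the same pathways as the members were read from 5 lists. Of their 86 genes, 18 fell and 9 rose, 31.4% past the threshold against 13.1% of all genes, and the median difference was -0.11. These shares are not alike in brightness. Of the 86, 7 were under the dim limit in both groups, against 11120 of the 30743 genes. With dim genes left out, 31 pathway genes passed, and 4713 of 19623 genes in all. Among 21 other lipid hydrolases, 2 fell and 0 rose, with a median of -0.08. Abhd3, a phospholipase, fell by 0.76 ± 0.12 (SE, adjusted p = 0.00695). Pnpla2, the adipose triglyceride lipase, fell by 0.48 ± 0.13 (SE), at the edge of the threshold, and missed it under 10 alternatives with adjusted p from 0.0504 to 0.162.

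Among 22 genes of fat absorption and lipoprotein assembly, 4 fell and 4 rose, with a median of -0.06. Fabp2, the intestinal fatty acid binding protein, fell by 1.73 ± 0.24 (SE, adjusted p = 0.00456), and Apob, the protein core of chylomicrons, by 1.66 ± 0.27 (SE, adjusted p = 0.00885). Dgat2, which makes triglyceride, rose by 1.15 ± 0.19 (SE, adjusted p = 0.00815).

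Among 14 other hydrolases and partners in drug metabolism, 5 fell and 0 rose, with a median of -0.18. Fmo5, a flavin monooxygenase, read 7.35 ± 0.30 (SD) in the controls and 5.40 ± 0.43 in the inflamed colons and fell by 1.95 ± 0.23 (SE, adjusted p = 0.00236). On inflamed replicates 1 and 3 Fmo5 read 5.25 and 5.07, near the negative control medians, so its fold is uncertain. Bche, a butyrylcholinesterase and thus a serine esterase outside the Ces family, fell by 1.42 ± 0.20 (SE, adjusted p = 0.00473). Ephx2, soluble epoxide hydrolase, fell by 0.79 ± 0.14 (SE, adjusted p = 0.0103).

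Of 21 nuclear receptors and gut transcription factors known to act on such genes, 7 fell and 1 rose, with a median of -0.20. Ppara, the fatty acid sensor that drives lipid catabolism, fell by 1.42 ± 0.11 (SE, adjusted p = 0.000505). Nr5a2, a receptor of gut and liver epithelium, fell by 1.18 ± 0.16 (SE, adjusted p = 0.00402). Cdx1, an intestinal identity factor, fell by 0.51 ± 0.10 (SE, adjusted p = 0.0164), a call lost without inflamed replicate 1 (0.0652) or 3 (0.053). Also among those that fell were the pregnane X receptor gene Nr1i2, by 0.36 (adjusted p = 0.035), and Nr3c1, by 0.35 (0.0131). Hnf4a fell by 0.30 (adjusted p = 0.043) and Rxra by 0.27 (0.0411). Cebpb was the gene that rose, by 0.43 (adjusted p = 0.03). The calls of Nr1i2, Nr3c1, Hnf4a, Rxra and Cebpb were not followed under the alternatives.

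The carboxylesterases are held in the ER lumen. Of 8 genes for ER folding proteins and retention receptors, 4 rose (8.05% of all genes did) and 0 fell, with a median of +0.31. Here 0 of the 8 were under the dim limit in both groups, unlike many of all genes. Hspa5, the chaperone BiP, rose by 0.71 ± 0.14 (SE, adjusted p = 0.0157, and 0.0503 without inflamed replicate 1). P4hb, a disulfide isomerase, rose by 0.54 ± 0.08 (SE, adjusted p = 0.00451), and Calr, calreticulin, by 0.51 ± 0.08 (SE, adjusted p = 0.00707). The KDEL receptors Kdelr1, Kdelr2 and Kdelr3, which return ER proteins, did not pass, and neither did the chaperone gene Canx (+0.18, adjusted p = 0.186).

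**Figure D4:**
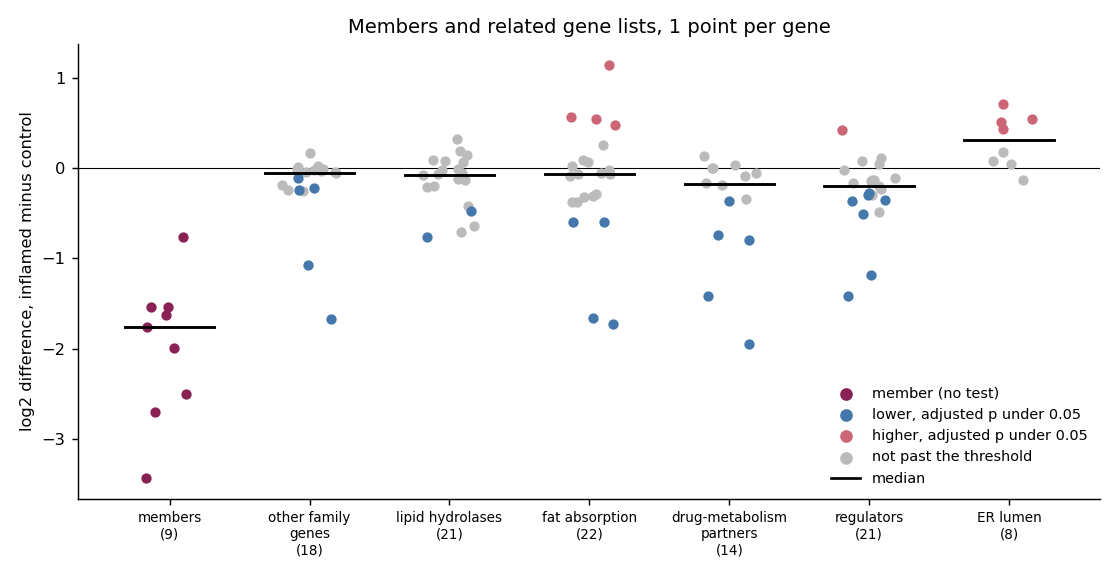
Log2 difference, inflamed minus control, of the 9 members, the 18 other family genes and the genes of 5 pathway lists; each point is a gene, colours give its call in the limma fit and the bar is the median of the list. The members' median is -1.76, while the medians of the other lists lie between -0.20 (regulators) and +0.31 (ER lumen).

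Markers of the cells a colon sample can hold were read beside the members. Of 8 pan-epithelial markers, 0 passed the threshold in limma and 0 had an unadjusted p under 0.05. Epcam differed by -0.01 and Cdh1 by 0.02 on the log2 scale. The list's mean was 0.15, 0.05 and 0.10 above the control mean in inflamed replicates 1 to 3. Set against the mean of these 8 genes on the same array, all 9 members were lower without overlap, by 0.87 (Ces2g) to 3.54 (Aadac) log2 units. The members were chosen on this contrast and the list differed little, so these values restate the differences given above and test nothing. The mean level of the list lay between 11.2 and 11.5 on every array, as fits a label of gut tissue.

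Of 8 markers of mature colonocytes, 5 fell and 1 rose, with a median of -0.65. Aqp8, a water channel, fell by 2.15 ± 0.41 (SE, adjusted p = 0.0151) and Guca2a, guanylin, by 1.23 ± 0.19 (SE, adjusted p = 0.00687). Slc26a3, the chloride exchanger, fell by 1.30 ± 0.32 (SE, adjusted p = 0.0389), a call lost under 8 alternatives. Cdhr5 and Car1 also fell, by 0.65 and 0.29, while Car4 and Slc9a3 did not pass. Krt20 went the other way and rose by 0.58 (adjusted p = 0.02), without overlap between the groups. The list's mean difference from the control mean was -0.79, -0.40 and -1.04 in inflamed replicates 1 to 3. The list's median was -0.85, -0.37 and -0.72, so replicate 3 was the lowest by the mean and replicate 1 by the median. Of 7 markers of small-intestinal enterocytes, 3 fell, led by the sucrase-isomaltase gene Sis. The inflamed mean of Sis, 4.66, was under the dim limit, so its fold is uncertain. The call of Alpi, 1 of the 3, was lost under 7 alternatives with adjusted p from 0.0643 to 0.138. Of 6 goblet cell markers 2 fell and 0 rose. Of 6 crypt and cycling markers 3 rose and 1 fell. Those that rose were the cycling genes Top2a, by 0.92 (adjusted p = 0.00715), Mki67, by 0.61, and Cdk1, by 0.59. The call of Cdk1 was lost under 7 alternatives. The stem cell marker Lgr5 fell by 0.57 (adjusted p = 0.0444), and Ascl2 (-0.11) and Olfm4 (+0.21, under the dim limit) did not pass. The call of Lgr5 was not followed under the alternatives.

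All 8 leukocyte markers rose, with a median of +1.48, and Ptprc, the pan-leukocyte gene, rose by 2.62. The list's mean difference from the control mean was 1.75, 1.69 and 1.68 in inflamed replicates 1 to 3. Of 7 smooth muscle markers, 5 fell, with a median of -0.72 and list means of -0.62, -0.63 and -0.69. The call of Des, 1 of the 5, was lost under 7 alternatives with adjusted p from 0.0529 to 0.0821. The part of these shifts in cell markers in the lower member values was not tested.

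Markers of fat, liver and pancreas, tissues rich in lipid esterases, were read as well. Of 7 adipocyte markers 0 passed in limma (2, Plin4 and Cidec, had an unadjusted p under 0.05, and Cidec had an adjusted p of 0.0493 without control replicate 2), the median was -0.03 and Adipoq was under the dim limit, at 3.60 in the controls and 3.57 in the inflamed colons. The hepatocyte marker Alb was under it too, at 4.19 and 4.04, and 1 of 6 hepatocyte markers, Tat, rose (adjusted p = 0.0172, and 0.0544 without inflamed replicate 3). Cps1, with a difference of -0.86, and Alb, with -0.15, had an unadjusted p under 0.05 and did not pass. Of 5 pancreatic acinar markers 1 fell, Cela1, a call lost under 8 alternatives with adjusted p from 0.0503 to 0.0773. Of 6 fibroblast and endothelial markers 0 passed in limma (1, Col3a1, had an unadjusted p under 0.05, and passed under 3 alternatives with adjusted p from 0.0313 to 0.0399), with a median of +0.16.

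**Figure D5:**
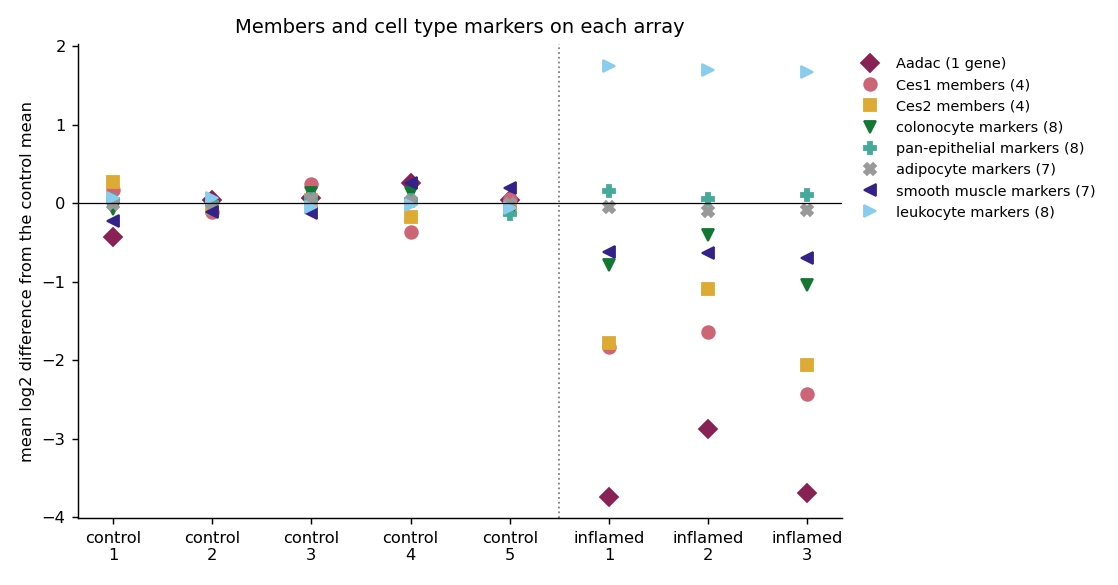
Mean log2 difference from the control mean on each of the 8 arrays for Aadac, the Ces1 and Ces2 members and the marker lists, with the number of genes in brackets. On the inflamed arrays the Ces1 and Ces2 means lie between -2.43 and -1.09 and Aadac between -3.74 and -2.88, while pan-epithelial markers stay between 0.05 and 0.15 and leukocyte markers between 1.68 and 1.75.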

How the data were processed

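Colon RNA of 8 mice was read on Affymetrix whole-transcript arrays, labelled with biotin. Expression Console from Affymetrix, with RMA, turned the scans into the log2 intensity of each probe set that the authors deposited, per the submitters' processing notes. RMA subtracts background, normalizes arrays to each other and summarises probes, and it shrinks differences at low signal. Neither software versions nor the array model is stated in the sources used here; the range of the values showed a log2 scale. The number of arrays limits precision. Array medians lay between 4.81 and 4.91.

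Of 72688 probe sets, 6732 controls were left out. Of 32750 annotated probe sets, 30604 had 1 symbol, 612 several symbols of 1 gene, and 1534 several genes and were left unnamed. Symbols were updated through RefSeq for 841 probe sets. Where a gene had several probe sets (364 genes), the one with the highest mean over the 8 arrays was used. The 3 inflamed and 5 control arrays were compared in R 4.3.3 by a limma 3.58.1 model without covariates (lmFit, then eBayes), with Benjamini-Hochberg adjustment over 30743 genes, and the scripts were tested on simulated data. "Fell" and "rose" mean an adjusted p under 0.05.

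The members and gene lists were chosen with earlier results of these data known. Named genes were the members, the other family genes, up to 3 genes per list past the threshold with the largest differences (or the 2 largest of any where under 2 passed), the 3 genes nearest in pattern to each of the 3 most changed members, the 2 nearest measured protein-coding genes on each side of each gene run, and defining markers. Nr1i2, Hnf4a, Rxra, Nr3c1, Cebpb and the KDEL receptors were named after their values were seen. So were Krt20, Cdhr5, Car1, Car4, Slc9a3, Lgr5, Ascl2 and Olfm4. Genes named after their values were seen were not followed singly under the alternatives. Alternatives covered scaling, dim values, probe set choice, the variance model, array weights, replicate number or sex pattern as a block, and each array left out.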

Additional observations from a re-analysis of the deposited data

Results flagged for a closer look

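Among the 5 controls, a value was set apart where its gap to the nearest other control exceeded 0.71 of the group's range. Of 87 genes examined, 11 had such a control and 0 of the 9 members did. Chance sets apart about 1 in 20 groups of distinct values, a rate that does not hold here. For Ces5a, Ces3b, Aadacl2fm1, Aadacl2, Aadacl2fm3, Ces4a and Ctrb1 the other controls had equal values, so any margin was enough. The 11 are therefore no excess over chance that can be read. The 3 inflamed arrays are too few for this check.

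Of the 11, 8 were family genes under the dim limit. Control replicate 5 was the highest for Ces1c (4.69, others 4.56 to 4.60), Aadacl3 (4.37, others 4.15 to 4.16) and Ces5a (4.20, others 4.13). Control replicate 2 was the highest for Ces3b (4.36, others 4.26) and Aadacl2fm3 (3.65, others 3.61). Control replicate 1 was the lowest for Aadacl2fm1 (3.03, others 3.05). Control replicate 3 was the highest for Aadacl2, at 3.51, and control replicate 4 for Ces4a, at 3.98, each by the smallest margins of the 11. Among other genes, control replicate 1 was the highest for Alpi (9.69, others 8.55 to 8.88), the intestinal alkaline phosphatase. Control replicate 2 was the highest for Ctrb1 (5.11, others 5.07), and control replicate 5 for Rrad (5.40, others 5.22 to 5.25).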

How the results depend on the processing

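Under 18 alternatives, the 9 members gave 162 values, all lower in the inflamed colons and all within 1 SD (pooled within groups) of the reported difference. Most of these values could not have come out otherwise. The groups did not overlap for any member, and leaving out 1 array cannot move a group mean by that SD. Changing the probe set choice or the variance model, or leaving dim genes out, kept each member's difference as it was. Leaving out each array in turn gave 2506 (without inflamed replicate 1) to 4562 changed genes, 8 to 9 members past the threshold, a median over members of -1.98 to -1.52, 19 to 28 of the 86 pathway genes and 2 to 5 of the other family genes. The 2 was without inflamed replicate 1, and 3 were left without control replicate 2, control replicate 5 or inflamed replicate 2. Quantile normalization, the floor at the dim limit and leaving dim genes out each left 3 other family genes. Array weights, which gave inflamed replicate 2 a weight of 0.174, called 5680 genes.

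With the replicate number as a block, only 6 arrays could be used, since controls 4 and 5 have no partner. limma then called 0 genes, 0 members, 0 pathway genes and 0 other family genes, with 4915, 9, 34 and 5 at an unadjusted p under 0.05; the members were chosen on this contrast, so their 9 supports nothing. Same-numbered arrays did not deviate together from their group means (correlations of -0.29, -0.05 and 0.07), so the numbers were not taken as a pairing. The files give no detection calls, so how low the Aadac RNA was on inflamed replicates 1 and 3 is not known.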
